A study of Mus musculus with 9 samples.

Results

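The genes described are 10 mouse genes of melanin and the pigment epithelium, chosen by name: Pmel, Dct, Tyrp1, Tyr, Gpnmb, Slc45a2, Mlana, Mitf, Trpm1 and Oca2. They stand among 12388 gene symbols listed in at least 1 of the 2 deposited tables. Pmel, Dct, Tyr, Gpnmb and Trpm1 are listed in both tables. Tyrp1, Slc45a2, Mlana and Mitf have a row only in the table of knock-in against mutant, and Oca2 has no row in either table used here.

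The data are RNA sequencing of retinas from CD-1 mouse embryos at E12.5 (E for days of embryonic development), in 3 groups of 3 samples. Knock-in samples carried a GFP insertion at one Neurog2 allele and a knock-in coding sequence at the other. Mutant samples carried GFP at both alleles and heterozygotes at one, next to a wild-type allele, so every group carries at least 1 GFP allele and no group is free of it. Each sample was made from a pair of GFP-positive optic cups that were dissected and dissociated, and no cell sort is named. Values are RPKM, reads scaled to transcript length and to the number of mapped reads, with 1 value per group and transcript. No value per sample was used, so no spread between samples can stand beside a level, and depth is unknown. Error enters only through the p and q that the authors deposited with each transcript. A transcript is called at q of 0.05 or less, a gene is called where any of its transcripts is, and its level is the sum over its transcripts. The lowest q a table holds is 0.0104 for knock-in against mutant and 0.0109 for mutant against heterozygote.

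Melanin is made in melanosomes, organelles related to lysosomes, by tyrosinase and its relatives on a fibrillar scaffold. In the embryo it is made by the retinal pigment epithelium, the outer layer of the optic cup that lies against the neural retina, and by melanocytes, which come from the neural crest. Mitf, a leucine zipper transcription factor, drives the melanosomal genes in both. CD-1 is an outbred albino stock, and albino mice have lost tyrosinase activity through a change in the Tyr coding sequence while still making the transcript.

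The targeted gene and the sex-linked genes were read first. Neurog2 was at 112 RPKM in the knock-in against 35.5 RPKM in the mutant, and at 36.2 RPKM in the mutant against 30.2 RPKM in the heterozygote. It was thus not lower in the mutant, and the tables do not separate its coding part, so the groups are written as knock-in-labelled, mutant-labelled and heterozygote. Summed Xist was at 174 RPKM in the knock-in-labelled retinas against 496 RPKM in the mutant-labelled retinas, and at 505 RPKM in the mutant-labelled retinas against 184 RPKM in the heterozygote. The Y-linked Eif2s3y was at 28.6 RPKM in the knock-in-labelled retinas and 21.9 RPKM in the heterozygote and is listed at 0 in the mutant-labelled retinas of both tables. Neither passed in either comparison, with q of 0.568 and 0.477 for Xist and 0.449 and 0.993 for Eif2s3y in the authors' deposited tables for knock-in against mutant and mutant against heterozygote. The members all lie on autosomes, and the part of sex in their values was not tested. Sample titles carry 1 number for the heterozygote and mutant-labelled samples and another for the knock-in-labelled ones, and if it marks a litter or batch, that cannot be told apart from the knock-in label. All 17 genes of a list of retinal progenitor genes had a row, with a summed level of 3225 RPKM in the knock-in-labelled and 3358 RPKM in the mutant-labelled retinas.

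Set against mutant-labelled retinas, knock-in-labelled retinas had more RNA of the melanin genes. All 5 members listed in both tables, Pmel, Dct, Trpm1, Gpnmb and Tyr, were called higher, where 0.971% of the genes listed in both tables were called higher. Their log2 ratios ran from 0.99 for Tyr to 3.13 for Dct, with a median of 2.36 beside -0.0062 over all genes in both tables. Of the 9 members with a row in this table, 7 were called higher and none lower, where 1.03% of all genes were called higher. The 4 members listed only here reach the table's lower limit through the knock-in-labelled value alone, so the 2 of them that were called, Tyrp1 and Slc45a2, add no support to the count of 5. In bulk RNA, more cells that make these transcripts and more of the transcripts per cell cannot be told apart.

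**Figure D1:**
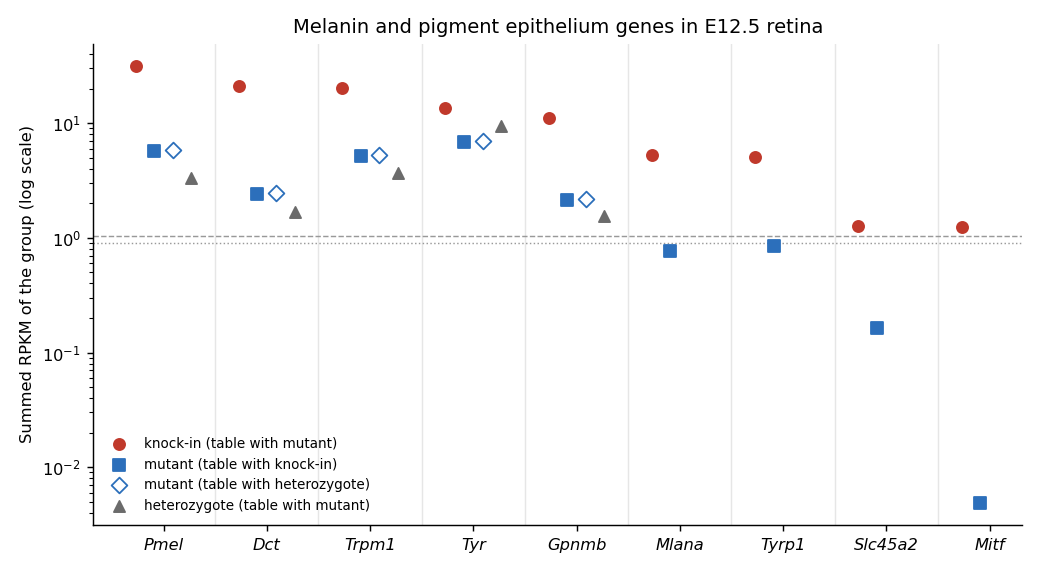
Summed RPKM (log scale) of the 9 listed members in knock-in-labelled, mutant-labelled and heterozygote retinas, 1 authors' value per group and table, with no spread available. The dashed and dotted lines are the lowest values that the higher group of a row reaches in the table with the knock-in (1.04 RPKM) and with the heterozygote (0.906 RPKM), and every knock-in point lies above the other points of its gene.

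The tyrosinase family makes the pigment. Dct, dopachrome tautomerase, which acts on a late intermediate of eumelanin (mm10 chromosome 14, 118012792 to 118052246, minus strand, 8 exons in the longest coding GENCODE transcript), was at 20.9 RPKM in the knock-in-labelled and 2.40 RPKM in the mutant-labelled retinas. The rise was 8.73-fold, and only 36 of the 11930 genes with a finite log2 ratio had a higher one. Genes listed at 0 in the mutant-labelled retinas have no such ratio and are not counted. GENCODE places the antisense gene 4930435M08Rik over Dct, and reads of the overlap cannot be told apart without strand. Tyrp1, its relative that stabilises tyrosinase (chromosome 4, 80834123 to 80851719, 8 exons), stood at 5.09 RPKM in the knock-in-labelled and 0.841 RPKM in the mutant-labelled retinas, a log2 ratio of 2.60. Tyr, tyrosinase itself, the rate-limiting enzyme (chromosome 7, 87427405 to 87493411, minus strand, 5 exons), stood at 13.6 RPKM in the knock-in-labelled and 6.82 RPKM in the mutant-labelled retinas. Tyr rose 1.99-fold, the smallest rise among the 7 called members, and each of the 3 family members had the lowest q of the table, 0.0104 in the authors' deposited table. Dct and Tyr thus rose by unequal amounts, and Tyrp1 had a row only through its knock-in-labelled value.

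To show the sequence in front of these genes, the 250 bases before the start of a RefSeq transcript are printed for the called members that the RefSeq table holds (GRCm38.p6, which has the coordinates of mm10). They come from the C57BL/6J reference and not from CD-1. Capitals mark matches, on either strand, to the E-box core CATGTG and its nested longer forms TCATGTG and TCATGTGCT, the last being the core of the M-box, a motif known from Mitf target genes. CACGTG was searched too. RefSeq windows were matched for 7 of the 10 members, and Pmel, Slc45a2 and Mlana had no entry.
Tyr, chr7:87493513-87493762, minus strand: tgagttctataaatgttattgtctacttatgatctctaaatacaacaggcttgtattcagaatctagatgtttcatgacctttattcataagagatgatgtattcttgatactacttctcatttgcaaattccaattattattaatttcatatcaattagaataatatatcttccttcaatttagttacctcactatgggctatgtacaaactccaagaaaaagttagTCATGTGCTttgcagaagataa
Tyrp1, chr4:80833963-80834212, plus strand: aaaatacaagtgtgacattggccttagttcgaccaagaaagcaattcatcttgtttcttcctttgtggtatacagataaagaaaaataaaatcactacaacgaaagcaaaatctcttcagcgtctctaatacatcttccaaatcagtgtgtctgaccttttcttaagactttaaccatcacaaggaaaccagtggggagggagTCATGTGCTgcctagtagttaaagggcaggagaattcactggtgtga
Dct, chr14:118052247-118052496, minus strand: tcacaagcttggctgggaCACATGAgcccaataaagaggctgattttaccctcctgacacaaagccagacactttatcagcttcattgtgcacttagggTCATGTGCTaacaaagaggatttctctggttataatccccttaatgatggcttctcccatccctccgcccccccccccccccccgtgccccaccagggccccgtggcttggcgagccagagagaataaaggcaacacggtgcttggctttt
Trpm1, chr7:64153585-64153834, plus strand: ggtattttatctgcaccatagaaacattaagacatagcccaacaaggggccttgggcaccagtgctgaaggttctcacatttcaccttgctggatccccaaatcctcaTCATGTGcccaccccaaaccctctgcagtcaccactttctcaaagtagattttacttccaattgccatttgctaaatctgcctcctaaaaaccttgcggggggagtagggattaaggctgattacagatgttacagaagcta
Gpnmb, chr6:49036268-49036517, plus strand: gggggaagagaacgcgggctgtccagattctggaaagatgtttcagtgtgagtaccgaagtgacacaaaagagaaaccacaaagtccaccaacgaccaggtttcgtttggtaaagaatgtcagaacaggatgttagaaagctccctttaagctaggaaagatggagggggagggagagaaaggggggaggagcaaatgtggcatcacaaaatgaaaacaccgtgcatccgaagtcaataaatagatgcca

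TCATGTGCT was found in the windows of Tyr, Tyrp1 and Dct, which are 3 of the 7 members with a window. These are 3 of the 10 windows of the members, and 0.335% of all 32851 windows in the table held TCATGTGCT. With -1 as the last base before the start, it lay at -22 to -14 for Tyr, -47 to -39 for Tyrp1 and -151 to -143 for Dct. The Tyrp1 window ends at 80834212, past the start of the Tyrp1 locus given above (80834123). Its match thus lies inside that locus and not in front of it. TCATGTG was found in 4 of the 7 members, Trpm1 included, or 4 of the 10 windows, and in 3.25% of all windows. CATGTG was found in 5 members, Oca2 included, or 5 of the 10 windows, and in 12.3% of all windows. The window of Gpnmb held none of these motifs. CACGTG was found at -229 to -224 of a further Trpm1 start and in 6.02% of all windows. A match describes letters only, and binding was not measured. The M-box was known beforehand from Mitf target genes, so these counts are a description, and enrichment was not tested.

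**Figure D2:**
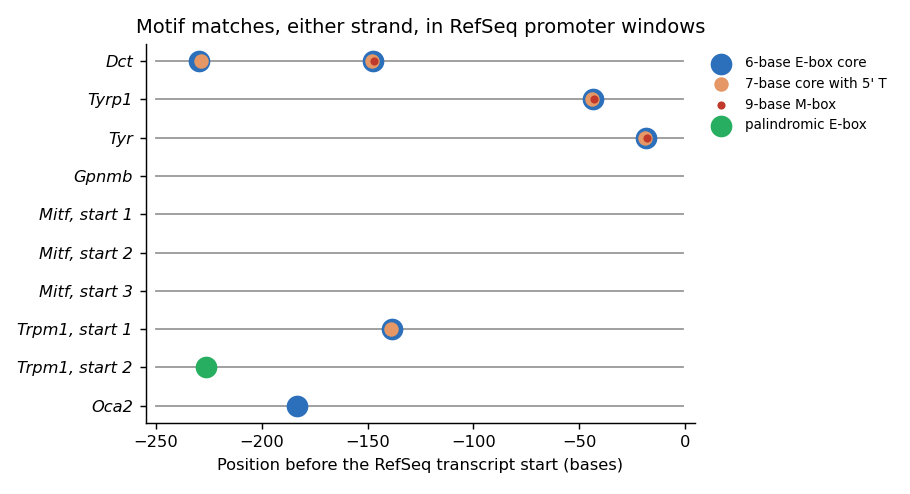
Positions of motif matches (coloured points, nested motifs drawn over each other) on the 250 bases before each RefSeq transcript start of the 7 members with a window, in bases before the start. The 9-base M-box core appears for Dct, Tyrp1 and Tyr, and no match appears for Gpnmb or for the 3 starts of Mitf.

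Of the genes of the melanosome's scaffold and membrane, Pmel and Gpnmb rose as well. Slc45a2 was called too, but had a row only through its knock-in-labelled value. Pmel, whose product forms the fibrils on which melanin is laid down (chromosome 10, 128706258 to 128744056, plus strand, 11 exons), was the most abundant member in the knock-in-labelled retinas, at 31.5 RPKM against 5.72 RPKM in the mutant-labelled retinas. This is a 5.51-fold rise (q = 0.0104 in the authors' deposited table). The span printed here is the locus the authors give for Pmel, which is shared with Dgka. GENCODE places Pmel itself at 128704195 to 128720238, and Dgka and Cdk2 on the opposite strand over parts of Pmel. The counting is not stated to use strand, so reads from the overlaps cannot be told apart. Dgka was at 0.897 RPKM in the knock-in-labelled and 1.63 RPKM in the mutant-labelled retinas, and Cdk2 at 15.5 and 21.7 RPKM in these groups. In the other comparison Dgka was at 1.66 RPKM in the mutant-labelled and 1.78 RPKM in the heterozygote retinas. Cdk2 was at 22.1 and 18.4 RPKM in these groups. The part of overlap reads in the Pmel values was not tested. Gpnmb, a glycoprotein related to Pmel that sits in melanosomes and lysosomes (chromosome 6, 49036546 to 49070929, 11 exons), stood at 11.1 RPKM in the knock-in-labelled and 2.16 RPKM in the mutant-labelled retinas, summed over 2 transcripts. The more abundant transcript rose to 6.88 RPKM in the knock-in-labelled retinas, against 1.22 RPKM in the mutant-labelled retinas (q = 0.0104 in the authors' deposited table). The other was at 4.23 RPKM in the knock-in-labelled and 0.935 RPKM in the mutant-labelled retinas and did not pass (q = 0.334 in the authors' deposited table).

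Slc45a2, a transporter that sets the conditions inside the melanosome (chromosome 15, 11000721 to 11029233, 7 exons), rose to 1.28 RPKM in the knock-in-labelled retinas, against 0.165 RPKM in the mutant-labelled retinas (log2 ratio 2.96, q = 0.0363 in the authors' deposited table). Mlana, a small melanosomal membrane protein that binds Pmel (chromosome 19, 29697921 to 29708448, 5 exons), stood at 5.27 RPKM in the knock-in-labelled and 0.761 RPKM in the mutant-labelled retinas. Its log2 ratio of 2.79 was above that of Pmel, yet it did not pass (p = 0.003, q = 0.179 in the authors' deposited table). Size of the ratio and outcome of the test thus did not run in parallel among the members.

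Trpm1, a cation channel of melanocytes and retinal ON bipolar cells whose gene also holds the microRNA gene Mir211 (chromosome 7, 64153835 to 64269757, 27 exons), stood at 20.1 RPKM in the knock-in-labelled and 5.15 RPKM in the mutant-labelled retinas. It rose 3.91-fold (q = 0.0104 in the authors' deposited table). Mitf, the regulator (chromosome 6, 97807052 to 98021349, 10 exons), has 1 transcript row, at 1.24 RPKM in the knock-in-labelled and 0.00487 RPKM in the mutant-labelled retinas. It did not pass (p = 0.215, q = 0.783 in the authors' deposited table), and a ratio against a value so close to 0 carries no information on size. Mitf has several promoters in the mouse, and the row is not tied to any of them in the table.

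The 4 members listed in 1 table only had low mutant-labelled values. Each row of the table with the heterozygote reaches at least 0.906 RPKM in its higher group, and the mutant-labelled values of Tyrp1, Mlana, Slc45a2 and Mitf in the other table, at 0.841, 0.761, 0.165 and 0.00487 RPKM, were all under it. Of 141 genes with a row in the knock-in table only, 128 likewise had a mutant-labelled value under 0.906 RPKM. Heterozygote values of these 4 genes are therefore not given here.

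Between mutant-labelled and heterozygote retinas no member passed the authors' test. None of the 5 listed members was called, where 0.245% of all 12247 genes were called higher. Pmel was at 5.83 RPKM in the mutant-labelled and 3.30 RPKM in the heterozygote retinas, a log2 ratio of 0.82 and the largest of the 5 (p = 0.0038, q = 0.271 in the authors' deposited table). Trpm1 was at 5.25 RPKM in the mutant-labelled and 3.64 RPKM in the heterozygote retinas, and Dct at 2.44 and 1.67 RPKM in these groups. Gpnmb was at 2.20 RPKM in the mutant-labelled and 1.56 RPKM in the heterozygote retinas.

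Tyr ran the other way, at 6.95 RPKM in the mutant-labelled and 9.43 RPKM in the heterozygote retinas, a log2 ratio of -0.44 (p = 0.00955, q = 0.452 in the authors' deposited table). Before adjustment, all 5 had a p under 0.05, 4 with higher and 1 with lower values. At that threshold 4.85% of all genes had a transcript with a higher and 6.2% one with a lower value. The median log2 ratio of the 5 was 0.53, beside 0.031 over all genes. Only 1 of the 2 transcripts of Gpnmb had a p under 0.05 (0.0131), and the other was at 0.954 RPKM in the mutant-labelled and 0.940 RPKM in the heterozygote retinas.

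The make-up of the group of 5 differed between the genotypes. Tyr gave 13.9% of their summed RPKM in the knock-in-labelled retinas, 30.7% in the mutant-labelled retinas and 48.1% in the heterozygote. Pmel gave 32.4% in the knock-in-labelled retinas, 25.7% in the mutant-labelled retinas and 16.8% in the heterozygote. Per length, Tyr RNA was thus at 0.430 times the level of Pmel in the knock-in-labelled retinas, 1.19 times in the mutant-labelled retinas and 2.85 times in the heterozygote. The order of levels in the knock-in-labelled retinas was Pmel, Dct, Trpm1, Tyr and Gpnmb. In the mutant-labelled retinas it was Tyr, Pmel, Trpm1, Dct and Gpnmb, and in the heterozygote Trpm1 stood above Pmel. Without values per sample it cannot be said which neighbours in these orders differ beyond their spread, and no test of the make-up was possible.

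**Figure D3:**
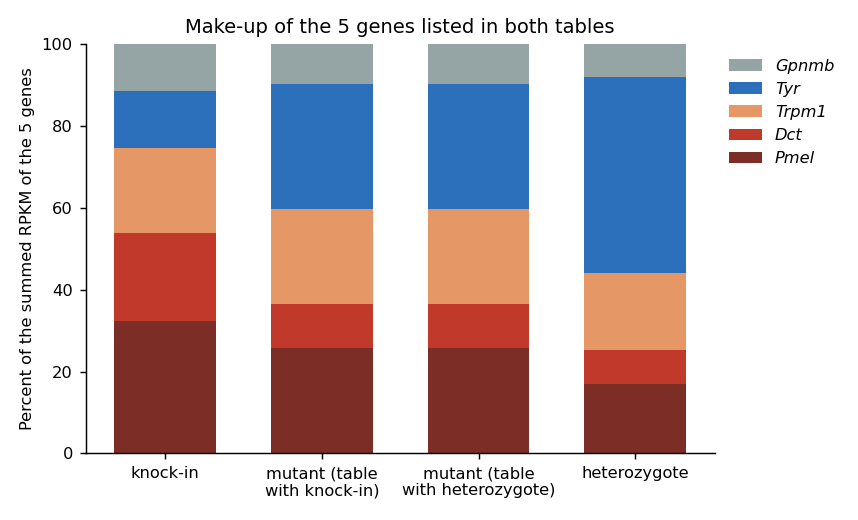
Percent of the summed RPKM of Pmel, Dct, Trpm1, Tyr and Gpnmb that each gene gave, in knock-in-labelled, mutant-labelled and heterozygote retinas, with the mutant-labelled retinas shown from both tables. The Tyr segment is 13.9% in the knock-in-labelled retinas, 30.7% in the mutant-labelled retinas and 48.1% in the heterozygote.

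The knock-in-labelled and heterozygote retinas share no table, so they can only be set side by side. The summed RPKM of the 5 genes was 97.2 in the knock-in-labelled retinas and 19.6 in the heterozygote, and the mutant-labelled retinas, which both tables hold, were at 22.2 and 22.7. Across the tables, the log2 ratio of knock-in-labelled over heterozygote values was 3.64 for Dct, 3.25 for Pmel, 2.83 for Gpnmb and 2.47 for Trpm1, and 0.52 for Tyr. The median of the 5 was 2.83, beside -0.0034 over all genes in both tables. These ratios have no test. The tables were normalized separately, and the mutant-labelled values of 5047 genes with a single transcript differed between them by a median of 0.028 on the log2 scale.

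**Figure D4:**
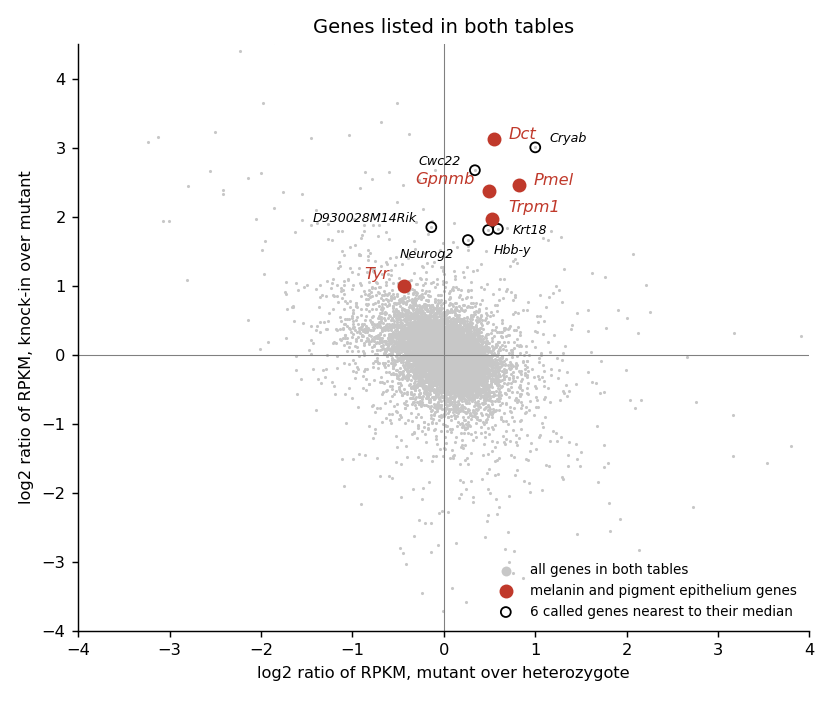
log2 ratio of RPKM, mutant-labelled over heterozygote (horizontal) and knock-in-labelled over mutant-labelled (vertical), for genes listed in both tables (grey), the 5 members (red) and the 6 called genes nearest to the members' median (open circles). Of the genes with finite ratios, 26 lie outside the axes. Both axes hold the mutant-labelled retinas, so the tilt of the grey cloud is no result; Pmel, Dct, Gpnmb and Trpm1 sit to the upper right and Tyr to the left of 0.

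Other genes of pigment cells were examined as lists. Of 34 genes of melanosome biogenesis, ion balance and transport, 28 had a row in the knock-in table, 26 of them in both tables, and none was called in either comparison. The median log2 ratio of the 28, knock-in-labelled over mutant-labelled, was 0.035, with 17 higher and 11 lower values. Abundant members such as Bloc1s1, a subunit of a sorting complex used in many cells, were at 131 RPKM in the knock-in-labelled and 149 RPKM in the mutant-labelled retinas. Lamp1, a general lysosomal membrane protein, was at 131 RPKM in the knock-in-labelled and 130 RPKM in the mutant-labelled retinas.

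Within that list, 3 genes known from pigment cells are given here, chosen after their values were seen. All 3 had higher values, while 11 of the 28 listed genes had lower ones. Dtnbp1, chosen likewise, was at 18.2 RPKM in the knock-in-labelled and 24.0 RPKM in the mutant-labelled retinas. Myo5a, also chosen likewise, was at 24.7 and 24.4 RPKM in these groups. Rab38, a small GTPase that delivers tyrosinase family enzymes to melanosomes, was at 4.62 RPKM in the knock-in-labelled and 2.32 RPKM in the mutant-labelled retinas (q = 0.0843 in the authors' deposited table). It was at 2.36 RPKM in the mutant-labelled and 1.01 RPKM in the heterozygote retinas (q = 0.0933 in the authors' deposited table), so it passed neither test. Slc24a5, a melanosomal ion exchanger, was at 2.85 RPKM in the knock-in-labelled and 1.09 RPKM in the mutant-labelled retinas (q = 0.783 in the authors' deposited table). Rab27a, which links melanosomes to their motor, was at 2.77 RPKM in the knock-in-labelled and 0.570 RPKM in the mutant-labelled retinas (q = 0.667 in the authors' deposited table). It has a row only in this table and only through its knock-in-labelled value, so only a higher value was possible.

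Of 30 genes of the pigment epithelium outside melanin making, 16 were listed in both tables, with a median log2 ratio of 0.31. Of the 16, 11 had higher values and 2 were called higher, where 0.971% of the genes listed in both tables were called higher. Sulf1, chosen after its values were seen, was lower, at 8.67 RPKM in the knock-in-labelled and 12.4 RPKM in the mutant-labelled retinas. Kcnj13, chosen likewise, was at 4.39 and 4.66 RPKM in these groups. Among the 16, Enpp2, Timp3 and Rrh had a row in the knock-in table only through the knock-in-labelled value. For these genes, the called Enpp2 included, only higher values were possible. Krt18, a keratin of simple epithelia, rose to 8.06 RPKM in the knock-in-labelled retinas, against 2.28 RPKM in the mutant-labelled retinas. Enpp2, which makes lysophosphatidic acid, rose to 3.10 RPKM in the knock-in-labelled retinas, against 0.893 RPKM in the mutant-labelled retinas. For each of them the authors' deposited table gives a q of 0.0104, and neither was called between mutant-labelled and heterozygote retinas. Genes of the mature visual cycle in this layer, Rpe65, Lrat and Rgr, have no row in either table used here. Of 15 transcription factors of the layer other than Mitf, 12 had a row, none was called in either comparison and the median was 0.0042. The neural retina also makes several of these. Otx2, chosen after its values were seen, was at 50.3 RPKM in the knock-in-labelled and 42.8 RPKM in the mutant-labelled retinas (q = 0.615 in the authors' deposited table), and Pax6 at 291 and 333 RPKM in these groups. Lhx2 was at 98.0 RPKM in the knock-in-labelled and 107 RPKM in the mutant-labelled retinas.

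Markers of melanoblasts and neural crest were less complete. Of 15, 7 had a row in the knock-in table and none was called in either comparison. Sox10, Pax3, Foxd3, Mc1r and Erbb3 have no row in either table used here, whose rows reach at least 1.04 and 0.906 RPKM in the higher group. Snai2 was at 8.20 RPKM in the knock-in-labelled and 7.03 RPKM in the mutant-labelled retinas, and Mbp at 7.54 and 6.27 RPKM in these groups. Kit, a receptor of melanoblasts that other cells make too, was at 6.50 RPKM in the knock-in-labelled and 6.62 RPKM in the mutant-labelled retinas. Ednrb, chosen after its values were seen, was at 2.04 RPKM in the knock-in-labelled and 1.31 RPKM in the mutant-labelled retinas (q = 0.783 in the authors' deposited table). Tfap2b, chosen likewise, was at 2.12 RPKM in the knock-in-labelled and 0.775 RPKM in the mutant-labelled retinas (q = 0.0676 in the authors' deposited table). It had a row there only through the knock-in-labelled value. Rab27a, given above, is in this list too and had a row only through its knock-in-labelled value. Together the 7 listed genes gave 30.3 RPKM in the knock-in-labelled and 23.9 RPKM in the mutant-labelled retinas. This sum includes Rab27a and Tfap2b, for which only higher values were possible.

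Lists of other tissues next to the retina held genes called higher too, where 0.971% of the genes listed in both tables and 1.03% of all genes were called higher. Of 27 lens genes 14 were listed in both tables, of which 12 had higher values and 2 were called higher. Another 4, Foxe3 among them, had a row only through the knock-in-labelled value. Over all 18 the summed RPKM was 212 in the knock-in-labelled and 88.6 in the mutant-labelled retinas. Cryab, a small heat shock protein of the lens, rose to 20.7 RPKM in the knock-in-labelled retinas, against 2.58 RPKM in the mutant-labelled retinas. Cryaa, its close relative, rose to 38.1 RPKM in the knock-in-labelled retinas, against 13.2 RPKM in the mutant-labelled retinas, where Foxe3, a lens transcription factor at 1.05 RPKM in the knock-in-labelled retinas, is listed at 0. Of 15 red blood cell genes 5 were listed in both tables, all with higher values, and 2 were called. Hba-a1, Hbb-bs and Alas2 among them had mutant-labelled values of 1.02, 0.801 and 0.0809 RPKM, under the limit of 1.04 RPKM. They too had a row here only through the knock-in-labelled value, so only higher values were possible. With 2 more that had a row only through the knock-in-labelled value, the summed RPKM was 131 in the knock-in-labelled and 35.1 in the mutant-labelled retinas. The calls were the embryonic globins Hbb-y and Hba-x, and Gata1 and Klf1 have no row. Of 16 periocular mesenchyme genes 4 were listed in both tables, all with higher values, and 1, Lum, was called. Another 3 had a row only through the knock-in-labelled value, the called Pdgfra among them, and the summed RPKM of the 7 was 141 and 90.8 in these groups. Foxc1 and Foxc2 have no row.

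The surface ectoderm list had 2 of 12 genes with a row, where 1.03% of all genes were called higher. Of these 2, Krt18, shared with the pigment epithelium list, was called. Gja1, a gap junction protein, was the 1 call among 8 listed genes of the ciliary margin and optic stalk, at 14.9 RPKM in the knock-in-labelled and 7.78 RPKM in the mutant-labelled retinas. In the other direction, 10 of 16 listed immediate early and heat shock genes fell, where 0.634% of all genes were called lower, Fos to 0.536 RPKM in the knock-in-labelled retinas, against 31.8 RPKM in the mutant-labelled retinas. The 3 listed genes of endothelium and macrophages had lower values and no calls. Over the 17 retinal progenitor genes the median log2 ratio was -0.066, and Hes5, a Notch target, was the 1 call, at 21.3 RPKM in the knock-in-labelled and 42.3 RPKM in the mutant-labelled retinas. The part of these genes in the rise of the melanin genes was not tested.

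Between mutant-labelled and heterozygote retinas the lens, blood, mesenchyme, melanoblast and immediate early lists had medians below 0. The median log2 ratio was -0.21 for 14 lens genes, -0.51 for 5 red blood cell genes and -0.47 for 4 periocular mesenchyme genes, with none called. It was -0.26 for 6 melanoblast and neural crest genes, 2 higher and 4 lower with none called. For 16 immediate early and heat shock genes it was -0.081. The melanin genes were at 0.53, with none called. Values were higher for 6 lens, 2 red blood cell and 1 mesenchyme gene, Cryab and Hbb-y among them. Cryab was at 2.63 RPKM in the mutant-labelled and 1.31 RPKM in the heterozygote retinas, and Hbb-y at 27.6 and 19.7 RPKM. In mutant-labelled and heterozygote retinas, summed RPKM was 34.8 and 30.8 for blood, 87.5 and 113 for lens, and 91.1 and 117 for mesenchyme. Hbb-bs and Alas2 had mutant-labelled values under 0.906 RPKM, so only lower values were possible for them. The median of the 17 retinal progenitor genes was 0.26 with no calls. The calls in the lists were 2 heat shock genes, where 1.09% of all genes were called lower. Hspa1a fell to 3.81 RPKM in the mutant-labelled retinas, against 7.14 RPKM in the heterozygote, and Dnajb1 fell to 41.7 RPKM in the mutant-labelled retinas, against 71.6 RPKM in the heterozygote (q = 0.0109 for each in the authors' deposited table). No test of a difference between lists was run.

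**Figure D5:**
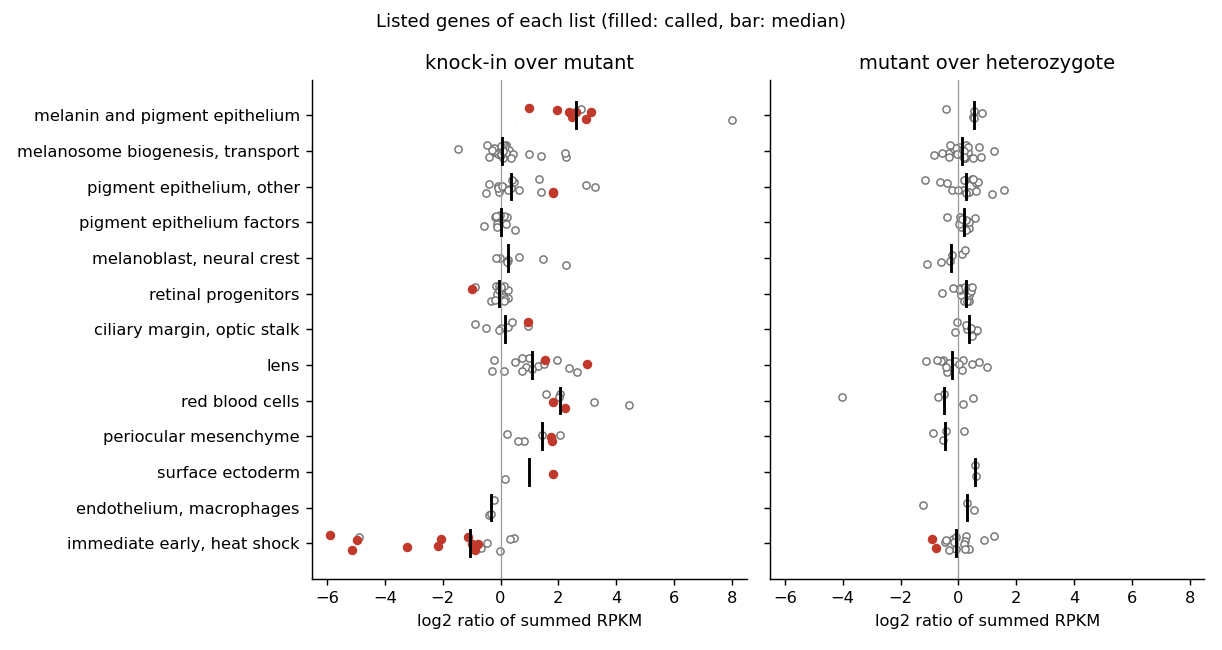
log2 ratio of summed RPKM for each listed gene with a finite ratio in the melanin genes and 12 further gene lists, knock-in-labelled over mutant-labelled (left) and mutant-labelled over heterozygote (right), with filled points for called genes and black bars for list medians. On the left the median of 2.60 over 9 melanin genes includes 4 with a row only through the knock-in-labelled value (2.36 without them), and the point at 7.99 is Mitf, which was not called; on the right no melanin gene is filled.

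The patterns most like that of the melanin genes were sought among 110 other genes that were called higher in the knock-in-labelled retinas, over both log2 ratios, which rest on 3 groups. The distance was taken from the median of the 5 members, at 0.53 and 2.36. The nearest gene was Cwc22, a splicing factor, at a distance of 0.36, with 188 RPKM in the knock-in-labelled, 29.5 RPKM in the mutant-labelled and 23.5 RPKM in the heterozygote retinas. Next came Krt18 at 0.55, Hbb-y, an embryonic globin with close paralogs, at 0.56, Neurog2 at 0.75, Cryab at 0.80 and D930028M14Rik at 0.84. Among the members, Gpnmb lay at 0.033, Pmel at 0.31, Trpm1 at 0.40 and Dct at 0.76, and Tyr lay farther out than all 6 of these genes, at 1.68. The centre is the median of these same members, so its coordinates are a ratio of Trpm1 and a ratio of Gpnmb. Short distances of members are thus partly built in and are no support.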

How the data were processed

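RNA came from E12.5 retinas of 3 knock-in, 3 mutant and 3 heterozygote samples, grouped by their titles. Per the labels' protocols, libraries came from a TruSeq RNA kit, and nothing states whether it kept strand. Per the submitters' processing notes, Bowtie2, Cufflinks and Cuffdiff were run with mm10, with no version or role named. For each comparison the authors deposited a table with 1 RPKM value per transcript and group, and, per the file headers, the p-value and q-value of each transcript. The deposited q-values equalled a Benjamini-Hochberg adjustment over the rows of the table to within 5.26e-07.

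Rows were matched to members by gene symbol. RPKM was summed over a gene's transcripts, and log2 ratios were taken without a pseudocount. Transcripts without a symbol (116 with the heterozygote, 117 with the knock-in) or with a date in its place (57 and 55) were left out of values by gene. Loci printed with the members are the authors' own, with 1 base added to each start to count from base 1. Gene bodies and exons are from GENCODE M21 and promoter windows from RefSeq. Python 3.11.15, pandas 2.3.3 and numpy 2.4.6 were used, and the scripts were tested on simulated data. No test was added to the authors' own. No label ties samples to separate litters, so p-values measure only the spread between these samples.

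Members and lists were chosen with earlier results of these data known. The genes named are the 10 members, up to 4 called genes of each of 12 further lists (or its 2 genes with the highest RPKM) and the 6 called genes with the nearest pattern; others are said to be outside this rule. Alternatives tried were other thresholds, pseudocounts, the most abundant transcript, a minimum level and centring. The name of the coding sequence in the knock-in allele is not reported here.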

Additional observations from a re-analysis of the deposited data

How the results depend on the processing

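No paired analysis was possible because the tables hold 1 value per group, and for the same reason no replicate could be left out. The count of members called in the knock-in-labelled against the mutant-labelled group, 7, was 0 at q of 0.01 or less, since no q in that table is so low. It was 7 at q of 0.1 or less and with the most abundant transcript only, and 5 with at least 1 RPKM in both groups and over members in both tables, the last chosen after the data were seen. Between mutant-labelled and heterozygote retinas the count, 0, became 5 at an unadjusted p under 0.05. With 1 RPKM added to both groups, which shrinks ratios of low genes, the median log2 ratio was 1.78 for knock-in-labelled over mutant-labelled and 2.24 for knock-in-labelled over heterozygote values. No median and no member's ratio changed sign under the pseudocounts, the transcript choice or centring. Counting each member's ratio once per alternative, 74 values moved by less than 1.5 times and 7 by more, 6 of these with 1 RPKM added. The largest shift was that of Mitf, with a log2 ratio of 3.68 with 0.1 RPKM added and 1.16 with 1 RPKM added. Depth per sample is unknown, and members under about 1 RPKM have no row.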
